A study of Mus musculus with 11 samples.

Results

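The fasted and the fed mouse hypothalamus were compared across the whole genome. The comparison takes 6 of the 11 arrays of the series, chosen by their labels as all 3 arrays of the fasted and all 3 of the fed hypothalamus, and uses all 34999 probes. All mice were wild-type females of strain SV/129, bought from Charles River and 10 weeks old. Chow was taken from the fasted group when the dark phase began, 16 hours before the tissue was collected in the morning, and the fed group kept chow ad libitum; both had water. RNA of 6 mice was pooled for each group, and each pool was hybridised 3 times to CodeLink Mouse Whole Genome arrays, 1-colour arrays read through biotin and streptavidin Cy5. The 3 arrays of a group therefore repeat 1 pool: their spread holds no difference between mice, and every p-value below compares 2 pools and not 2 feeding states. The other 5 arrays are of the cerebellum.

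The hypothalamus sets food intake, energy use and the output of the pituitary. Neurons of its arcuate nucleus that make Agrp and Npy drive feeding, and neighbours that make Pomc and Cartpt restrain it; both read leptin, insulin and ghrelin from the blood. Other hypothalamic cells make orexin (Hcrt), melanin-concentrating hormone (Pmch) and the releasing hormones of the thyroid, stress, growth and reproductive axes. In a fast, leptin and insulin fall and ghrelin and glucocorticoids rise in rodents.

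The values are ratios to the median of the fed arrays, so on each probe 1 fed array stands at or close to 1. Every array was rescaled so that its median ratio is 1, and the ratios given below are after that step. Changes are log2 fasted minus fed ± SE from limma, and a gene is called at a Benjamini-Hochberg adjusted p under 0.05 over all probes. A ratio holds no signal strength, so levels cannot be compared between genes, dim probes cannot be told from bright ones, and the tissue label could not be checked by the level of its markers. In counts over genes and lists, a gene with more than 1 probe enters by its tightest one, that of the smallest residual SD between arrays. The genes named for the largest changes are instead given by the probe that met the naming rule. Of 1087 list genes, 191 had several probes, and 12 that were not called by the tightest probe were called by another, 9 lower (Deptor, Gad2, Hmx2, Itpka, Kcnj12, Lef1, Mrpl35, Prkab2 and Slc1a2) and 3 higher (Pdgfra, Rpl5 and Uqcr10). Of the 30 called list genes with several probes, 23 had at least 1 other probe that was not called. The lists were chosen with earlier results of these data known. A list's share set beside that of all genes is therefore a description and not a test. In bulk tissue, fewer cells of a type and less RNA per cell cannot be told apart.

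Of 34999 probes, 2210 were called (6.31%), 830 higher (2.37%) and 1380 lower (3.94%) in the fasted pool. Among the 18048 genes with a named probe, 425 were called higher (2.35%) and 818 lower (4.53%), and the median change was -0.016. Most calls were small. A change of at least 1.5-fold was seen at 441 called probes (1.26%), of which 52 were higher (0.149%) and 389 lower (1.11%). The balance of directions depended on scaling: 37.6% of calls were higher with the array median, against 19.1% with no scaling, 5.56% with the 75th percentile and 4.17% with quantile normalization. Scaling to the 75th percentile moved the median of all probes by -0.105, and a change under that size has no settled direction. The count also rested on every array, and so do the list counts below. Several of the list counts are given with their range when 1 array is left out. The number of called probes was 339, 134 and 990 without fed replicates 1, 2 and 3. It was 479, 302 and 316 without fasted replicates 1, 2 and 3, and 118 probes were called whichever array was left out. With the replicate number as a block 48 probes were called, 6 higher and 42 lower. Among genes of the 56 lists the call then held for Prl, Fat2, Sult1a1 and Slc17a7 alone. Of the cholinergic genes gathered later, Slc18a3 and the tighter Lhx8 probe kept the call as well. The arrays of the 2 groups did not overlap at 13066 probes (37.3%), so a gap between groups is by itself common here.

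The largest rise was that of Prl, which encodes the hormone prolactin. Its ratio was 1.07, 1.00 and 0.951 on the fed and 12.8, 12.3 and 11.5 on the fasted arrays. The lowest fasted array, at 11.5, stood far above the highest fed array, at 1.07. The change was 3.60 ± 0.068, or 12.1-fold (adjusted p = 0.000106, limma), and Prl was called under every alternative setting. Prl is made mostly by lactotrophs of the pituitary, which hangs below the hypothalamus. Of 11 measured genes of pituitary cells, 2 were called higher (18.2%) and 0 lower, against 2.35% and 4.53% of all genes. The second was Ghrhr, the receptor for growth hormone-releasing hormone, at 0.32 ± 0.056 (limma adjusted p = 0.0336). Whichever array was left out, 1 gene of the list was called higher, which was Prl. The list's median on each array lay between -0.026 and 0 in the fed and between 0.11 and 0.18 in the fasted group. The pituitary hormone genes Tshb (-0.31 ± 0.087), Lhb (0.28 ± 0.10), Fshb (0.075 ± 0.056) and Cga (0.10 ± 0.067), which encode thyrotropin and gonadotropin subunits, were not called. Neither was Tbx19 (0.26 ± 0.076), a factor of the cells that make Pomc, nor Pitx1 (-0.56 ± 0.26), the lowest member of the list. Prl rose in the fasted cerebellum as well, and the rise in the hypothalamus was larger by 0.527 log2. The part of pituitary tissue in the Prl change was not tested. Gh and Pou1f1, which would mark somatotrophs and lactotrophs, had no probe with 1 gene symbol.

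Genes known best from cerebellar neurons came next. Cbln3, a secreted protein of granule cells, stood at 1.00, 0.830 and 1.00 on the fed and 3.52, 3.41 and 3.45 on the fasted arrays by 1 probe and rose by 1.88 ± 0.085 (adjusted p = 0.0013). Its second probe stood at 1.06, 1.00 and 0.987 on the fed and 1.72, 1.73 and 1.71 on the fasted arrays and rose by 0.76 ± 0.048 (adjusted p = 0.00324), so the probes shared the direction and not the size. Pcp2, a Purkinje cell gene, was at 0.850, 1.00 and 1.09 on the fed and 2.84, 2.99 and 2.67 on the fasted arrays. No fasted array came near a fed one, and the change was 1.54 ± 0.10 (adjusted p = 0.00405). Fat2, a cadherin of granule cells, was at 1.00, 1.05 and 0.964 on the fed and 2.64, 2.61 and 2.46 on the fasted arrays, a rise of 1.36 ± 0.055 (adjusted p = 0.000875); a second Fat2 probe, whose fed arrays ran from 0.861 to 3.26, was not called (-0.20 ± 0.53). Car8 of Purkinje cells rose by 0.59 ± 0.058 and Neurod1 of granule cells by 0.51 ± 0.058; a second Car8 probe was at 0.09 and was not called. Of 16 measured genes of cerebellar neurons, 5 were called higher (31.2%) and 2 lower (12.5%), against 2.35% and 4.53% of all genes, and the median was 0.11 against -0.016 over all genes. The 2 lower genes were the transcription factors Zic1 (-0.46 ± 0.060) and Etv1 (-0.26 ± 0.053). Calb1 (0.047 ± 0.057), Pvalb (-0.022 ± 0.13) and Gng13 (-0.067 ± 0.065), abundant in Purkinje cells, were not called, and Gabra6 of granule cells had 1 fed array at 2.26 with the others at 0.909 and 1.00. Leaving out 1 array left between 3 and 6 genes called higher. Whether cerebellar tissue or RNA had a part in these values was not tested.

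Plin4, a protein that coats lipid droplets, stood at 1.14, 1.00 and 0.942 on the fed and 2.82, 2.68 and 2.90 on the fasted arrays, a rise of 1.45 ± 0.083 or 2.73-fold (adjusted p = 0.00255). A second probe was at 0.928, 1.00 and 1.19 on the fed and 1.64, 1.58 and 1.78 on the fasted arrays and was called as well (0.69 ± 0.10). Sult1a1, a sulfotransferase, was at 1.07, 0.902 and 1.00 on the fed and 2.13, 1.95 and 2.01 on the fasted arrays, a rise of 1.04 ± 0.078 (adjusted p = 0.00506). Both are on a list of 28 measured genes that glucocorticoids induce, of which 6 were called higher and 2 lower, against 2.35% and 4.53% of all genes. The other 4 that rose were Mfsd2a, a lipid transporter of the blood-brain barrier (0.75 ± 0.15), Hif3a (0.40 ± 0.056), Angptl4, a lipase inhibitor (0.26 ± 0.046), and the kinase Sgk1 (0.22 ± 0.040). Sgk1 was tight on each side, at 1.000, 1.01 and 1.00 on the fed and 1.16, 1.17 and 1.18 on the fasted arrays. Rasd1, a small GTPase, fell by 0.63 ± 0.068 and Klf9, a zinc finger factor, fell by 0.30 ± 0.061. Other genes commonly used to read glucocorticoid action were not called: Fkbp5 stood at 0.10 ± 0.066, Tsc22d3 at -0.28 ± 0.13, Per1 at -0.14 ± 0.053 and Zbtb16 at -0.0082 ± 0.084. The list's median was 0.059 and became -0.048 with the 75th percentile scaling. Without 1 array, 2 or 3 genes were called higher and 0 or 1 lower.

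Of these 28 genes, 24 had a promoter window in RefSeq (GRCm38.p6, 250 bases before to 50 after a start). The glucocorticoid receptor binds inverted repeats, searched here as GNACANNNTGTNC, which reads the same on both strands. It was found in 4 genes, Sgk1, Mt1, Map3k6 and Fam107a, while 0.537% of all 27025 genes with a window held it. Only Sgk1 of the 4 was called; Mt1 stood at -0.00031 ± 0.084, Map3k6 at 0.12 ± 0.047 and Fam107a at -0.090 ± 0.077. The Sgk1 window, shown because it joins a called gene to the motif, is at chr10:21993640-21993939 on the plus strand, with the match, from base 63 of the window, in capitals.
Sgk1: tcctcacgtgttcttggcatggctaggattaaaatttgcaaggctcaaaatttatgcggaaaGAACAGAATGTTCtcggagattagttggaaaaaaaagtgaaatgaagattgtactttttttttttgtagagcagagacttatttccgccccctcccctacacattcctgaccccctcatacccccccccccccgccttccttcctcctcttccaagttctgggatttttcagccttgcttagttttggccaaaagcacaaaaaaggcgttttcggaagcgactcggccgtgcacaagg
A match describes letters and not a bound site.

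Outside these groups, 8 further genes were among the 15 with the largest rises by the naming rule. Il20rb, a receptor chain for interleukins, stood at 1.00, 0.953 and 1.02 on the fed and 2.28, 2.70 and 2.35 on the fasted arrays and rose by 1.30 ± 0.078 (adjusted p = 0.00262), with a second probe at 0.07 ± 0.048 that was not called. The myosin-binding proteins Mybpc3 and Mybpc1 rose by 1.12 ± 0.13 and 0.92 ± 0.078; 2 other Mybpc1 probes were at 0.40 ± 0.11 and 0.55 ± 0.25 and were not called. The tRNA deaminase gene Adat2 was at 1.00, 1.04 and 0.987 on the fed and 1.99, 1.87 and 1.82 on the fasted arrays, a rise of 0.91 ± 0.055. Slc6a12, a transporter of betaine and GABA, rose by 0.76 ± 0.12, Tnfsf18, a ligand of the tumour necrosis factor family, by 0.90 ± 0.17, and Smim40 by 0.76 ± 0.16. Rbm3, an RNA-binding protein that mild cold induces, stood at 0.928, 1.12 and 1.00 on the fed and 1.75, 2.12 and 1.68 on the fasted arrays and rose by 0.86 ± 0.11 (adjusted p = 0.0196), while its second probe was not called (0.07 ± 0.074). Adat2, Il20rb and Mybpc1 were called without any 1 array, whereas Mybpc3, Slc6a12 and Smim40 were called in 1, 2 and 1 of the 6 fits that leave out 1 array, and Tnfsf18, Rbm3 and Mfsd2a in 0.

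**Figure D1:**
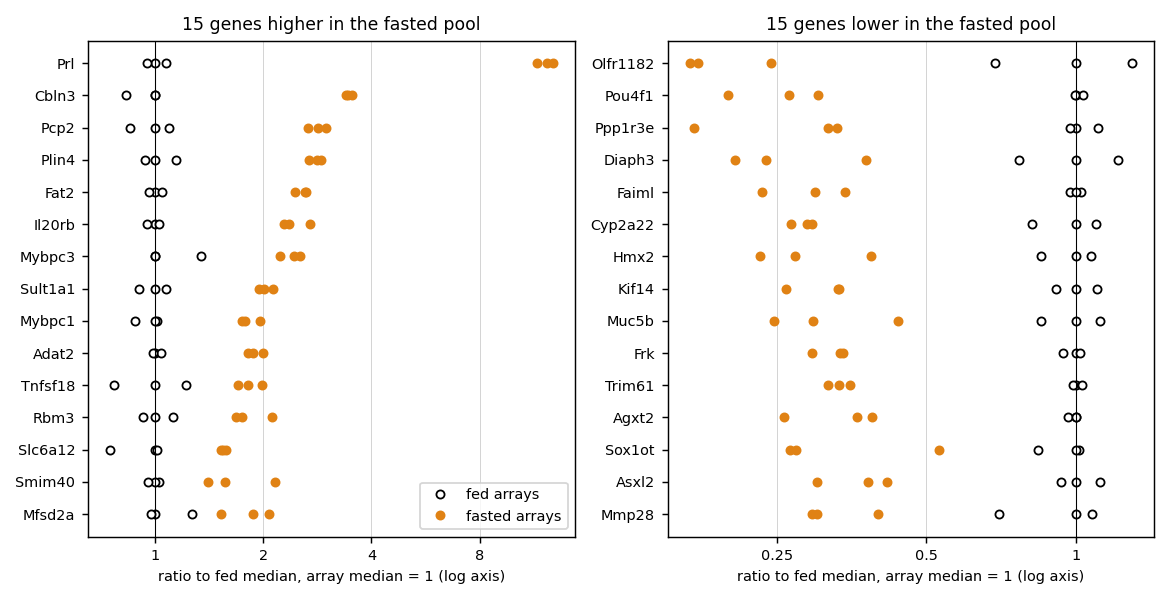
Ratios of the 15 genes with the largest rises (left) and falls (right) chosen by the naming rule, on the 3 fed (open) and 3 fasted arrays (filled), log axis. Prl stands apart at 11.5 to 12.8 on the fasted arrays, and the fasted arrays of the falling genes scatter more widely than those of the rising genes.

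Among the falls named by the same rule, the olfactory receptor gene Olfr1182 stood at 1.00, 0.687 and 1.30 on the fed and 0.167, 0.243 and 0.173 on the fasted arrays, a change of -2.33 ± 0.26 or 5.03-fold lower (adjusted p = 0.0139). Pou4f1, a transcription factor of habenula and sensory neurons, was at 1.00, 1.04 and 0.997 on the fed and 0.303, 0.199 and 0.264 on the fasted arrays, a change of -2.01 ± 0.15 (adjusted p = 0.00516). Ppp1r3e, a glycogen-targeting phosphatase subunit, stood at 1.00, 1.11 and 0.972 on the fed and 0.170, 0.316 and 0.330 on the fasted arrays (-1.98 ± 0.26), and Diaph3, an actin-assembling formin, at 1.21, 1.00 and 0.769 on the fed and 0.237, 0.206 and 0.378 on the fasted arrays (-1.89 ± 0.27). The naming rule took only genes whose fasted and fed arrays did not overlap. Within a group the arrays still ranged widely in places, as on the fed arrays of Olfr1182 and the fasted arrays of Ppp1r3e. The other 11 were Faiml (-1.80 ± 0.14), the cytochrome P450 gene Cyp2a22 (-1.77 ± 0.12), the hypothalamic homeobox gene Hmx2 (-1.74 ± 0.20), the mitotic kinesin Kif14 (-1.71 ± 0.12), the mucin Muc5b (-1.63 ± 0.22), the tyrosine kinase Frk (-1.61 ± 0.073), Trim61 (-1.59 ± 0.054), the aminotransferase Agxt2 (-1.58 ± 0.15), the non-coding Sox1ot (-1.49 ± 0.28), the chromatin factor Asxl2 (-1.48 ± 0.14) and the metalloproteinase Mmp28 (-1.47 ± 0.20). Cyp2a22, Faiml, Frk, Kif14, Pou4f1 and Trim61 kept the call without any 1 array.

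Several of these falls rest on 1 probe of a gene that has another. Ppp1r3e had a second probe at 0.28 ± 0.060, Asxl2 at 0.28 ± 0.11, Agxt2 at 0.11 ± 0.26, Kif14 at 0.02 ± 0.12 and Hmx2 at -0.14 ± 0.063, and none of the 5 was called. Over all genes with a call of at least 1.5-fold lower and another probe, 48.7% of the 76 other probes lay below 0 and 11.8% were called lower. For rises of that size the shares were 92.3% and 46.2% of 13 other probes. The residual SD between arrays, with a median of 0.0878 log2 over all probes, was 0.15 at probes called at least 1.5-fold lower and 0.0956 at those called at least 1.5-fold higher. Without a signal level, whether such probes were dim could not be examined.

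**Figure D2:**
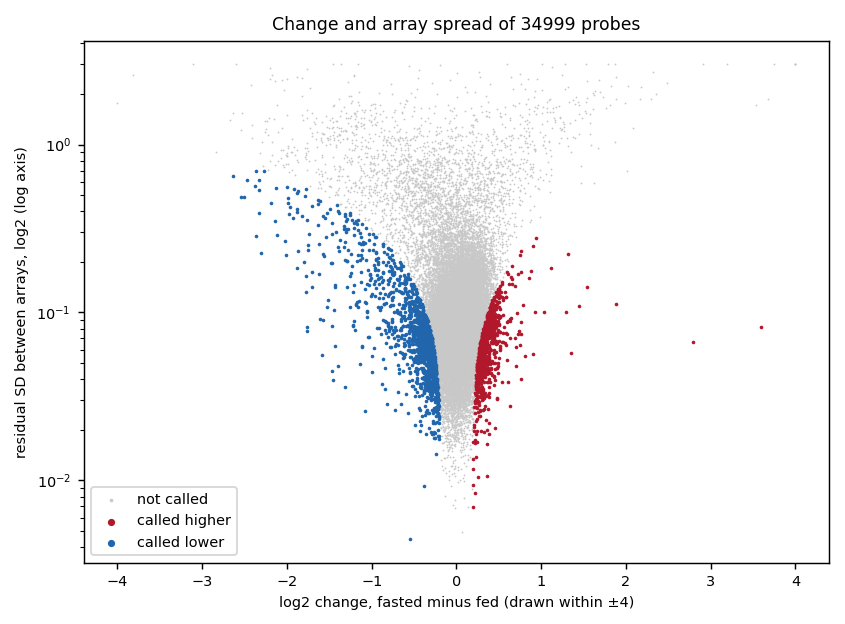
Each point is 1 of 34999 probes, with its log2 change on the x axis and the residual SD between arrays on the y axis (log axis); red and blue mark the 830 called higher and 1380 called lower. Large falls extend to high residual SD, while few rises pass 1 log2.

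No gene of the arcuate feeding peptides was called. Npy, the appetite-driving peptide of the arcuate nucleus, stood at 1.00, 1.07 and 0.856 on the fed and 0.994, 1.05 and 0.921 on the fasted arrays, a change of 0.025 ± 0.099 (adjusted p = 0.883), with overlapping groups. Pomc, the precursor of appetite-lowering melanocortins, stood at 1.00, 1.06 and 0.992 on the fed and 1.08, 1.07 and 1.03 on the fasted arrays (0.061 ± 0.050, adjusted p = 0.443) and its companion Cartpt at 0.995, 1.00 and 1.09 on the fed and 0.990, 0.950 and 1.00 on the fasted arrays (-0.065 ± 0.056, adjusted p = 0.464). Of 6 measured arcuate peptide genes 0 were called; 1 had an unadjusted p under 0.05, Pdyn, which encodes dynorphin, at 1.00, 1.05 and 0.931 on the fed and 1.20, 1.20 and 1.19 on the fasted arrays (0.27 ± 0.057, adjusted p = 0.0507). Ghrh, which releases growth hormone, stood at 0.14 ± 0.076 and Tac2 at 0.042 ± 0.065. Agrp and Kiss1 had no probe with 1 symbol. The SE of the Npy change, 0.099, was above the median SE of 0.0666 over all named genes.

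Among 27 other hypothalamic peptide genes, 0 rose and 4 fell (14.8%), against 2.35% and 4.53% of all genes. Cck, a satiety peptide that cortex and thalamus also make, stood at 1.19, 1.00 and 0.945 on the fed and 0.591, 0.641 and 0.632 on the fasted arrays and fell by 0.75 ± 0.096 (adjusted p = 0.0186). Apln, the vascular and neuronal peptide apelin, was at 1.05, 1.00 and 0.919 on the fed and 0.646, 0.641 and 0.616 on the fasted arrays and fell by 0.64 ± 0.063 (adjusted p = 0.0104). Vgf, the precursor of peptides tied to energy balance, was at 0.951, 1.04 and 1.00 on the fed and 0.775, 0.720 and 0.717 on the fasted arrays by its tightest probe and fell by 0.44 ± 0.059 (adjusted p = 0.0204), whereas its other probes, at -0.27 and 0.07, were not called. Ucn, urocortin of the stress system, was at 1.04, 0.972 and 1.00 on the fed and 0.812, 0.773 and 0.752 on the fasted arrays and fell by 0.37 ± 0.053 (adjusted p = 0.024). The orexin gene Hcrt was at 1.00, 1.02 and 0.959 on the fed and 0.991, 0.999 and 0.966 on the fasted arrays, within the fed range (-0.013 ± 0.047, adjusted p = 0.874). Pmch was at 0.969, 1.00 and 1.02 on the fed and 1.07, 1.24 and 1.11 on the fasted arrays; its fasted arrays lay above the fed ones and the call was missed (0.19 ± 0.068, adjusted p = 0.126). Oxt (0.076 ± 0.065), Avp (-0.043 ± 0.053), Gal (0.058 ± 0.12), Sst (-0.18 ± 0.062), Trh (0.10 ± 0.054) and Crh (-0.19 ± 0.052) were not called either. Without 1 array, between 0 and 2 genes were called lower.

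The receptors that read appetite signals gave 1 call in 26, against 6.89% of all genes. It was Ntrk2, the receptor for Bdnf, at 1.00, 0.994 and 1.03 on the fed and 0.794, 0.806 and 0.768 on the fasted arrays (-0.35 ± 0.045, adjusted p = 0.018). A second of its 4 probes was called (-0.31 ± 0.046) and 2 were not (-0.21 and -0.02). The melanocortin receptor Mc4r, through which Pomc products lower intake, was at 0.950, 1.00 and 1.01 on the fed and 0.904, 0.967 and 0.978 on the fasted arrays (-0.057 ± 0.054), with 2 further probes at -0.10 and -0.11. The insulin receptor Insr was at 1.05, 1.00 and 0.989 on the fed and 0.997, 0.886 and 0.953 on the fasted arrays (-0.10 ± 0.061), while its second probe was at 0.29 ± 0.073; neither was called. Mc3r stood at 0.22 ± 0.078, Npy2r at -0.19 ± 0.067, Htr2c at 0.17 ± 0.041 and Oprk1 at -0.33 ± 0.084, also without a call. Lepr and Ghsr, the leptin and ghrelin receptors, had no probe with 1 symbol.

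Downstream of the leptin receptor, 0 of 12 genes rose and 4 fell (33.3%), against 2.35% and 4.53% of all genes, with a median of -0.17. Stat5b, which carries cytokine, growth hormone and prolactin signals, was at 1.00, 1.00 and 0.829 on the fed and 0.581, 0.603 and 0.677 on the fasted arrays and fell by 0.60 ± 0.10 (adjusted p = 0.0313). Ptpn11, the phosphatase that links the receptor to the MAP kinase path, was at 0.984, 1.00 and 1.03 on the fed and 0.771, 0.791 and 0.771 on the fasted arrays and fell by 0.37 ± 0.044. Socs2, an inhibitor of cytokine signals, fell by 0.35 ± 0.047 by 1 probe, with the other at -0.06, and the adaptor Sh2b1 fell by 0.26 ± 0.051. Socs3, the feedback inhibitor that leptin induces, was at 1.06, 0.978 and 1.00 on the fed and 1.01, 0.925 and 0.958 on the fasted arrays (-0.066 ± 0.057, adjusted p = 0.468), so its groups overlapped. Stat3 (-0.19 ± 0.059) and Jak2 (0.074 ± 0.092) were not called. Without 1 array, between 0 and 2 genes were called lower. Of 12 enzymes and granule proteins that process peptides 1 rose (8.33%) and 2 fell (16.7%), against 2.35% and 4.53% of all genes. Furin, a proprotein convertase, was at 1.02, 1.00 and 0.981 on the fed and 0.755, 0.765 and 0.749 on the fasted arrays and fell by 0.40 ± 0.043. Ide, which degrades insulin, fell by 0.31 ± 0.062, and Chgb, a secretory granule protein, rose by 0.40 ± 0.073. The convertase Pcsk1 (0.015 ± 0.047) and the carboxypeptidase Cpe (-0.13 ± 0.049) were not called.

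**Figure D3:**
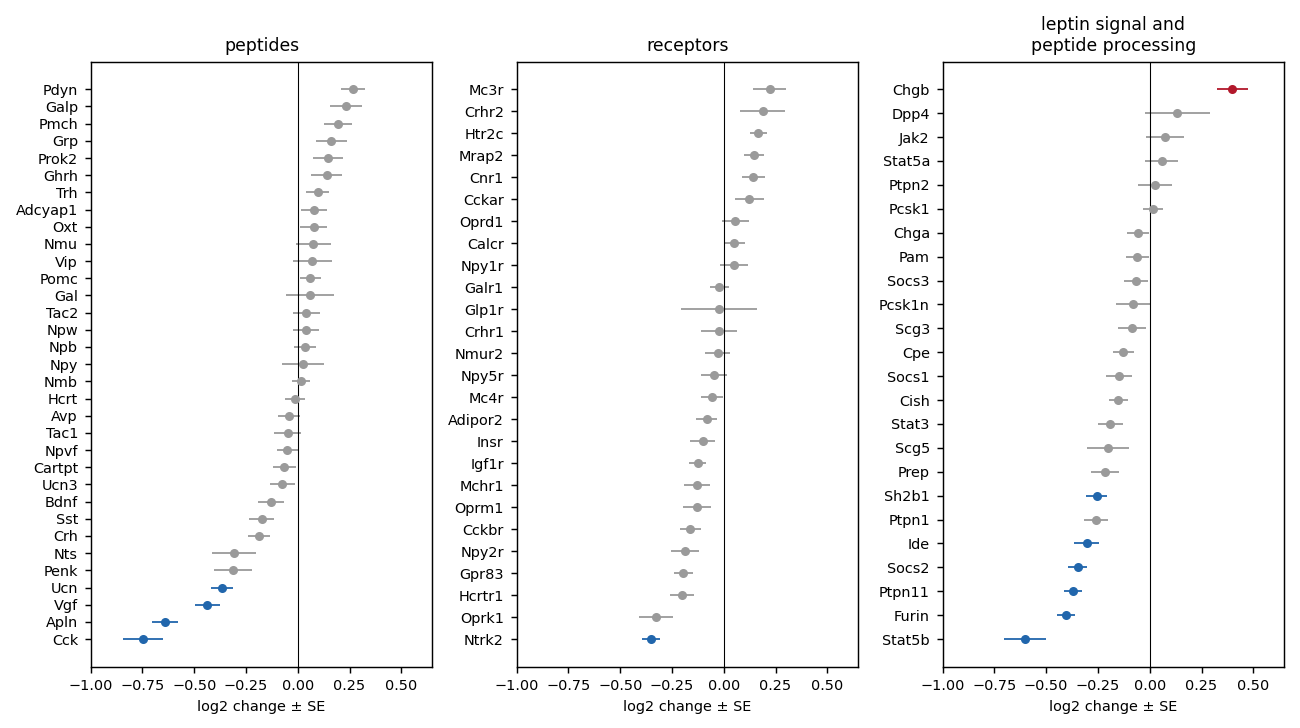
Log2 change ± SE of hypothalamic peptide genes, appetite receptors, and leptin signal and peptide processing genes; red and blue mark called genes and grey those not called. Cck, Apln, Vgf and Ucn are the called peptides, and Npy, Pomc and Cartpt lie within 0.07 of 0.

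Over the 4 hormone axes, 2 of 48 genes were called (4.17%), against 6.89% of all genes. Of 14 stress axis genes, 1 was called, Ucn; the mineralocorticoid and glucocorticoid receptors Nr3c2 and Nr3c1 stood at 0.063 ± 0.049 and 0.044 ± 0.11. Of 10 thyroid axis genes, 1 was called, Ttr, which carries thyroid hormone and is made by choroid plexus, at 1.10, 1.00 and 0.939 on the fed and 0.596, 0.571 and 0.561 on the fasted arrays, a fall of 0.81 ± 0.070 (adjusted p = 0.0076). The deiodinase Dio2, which makes active thyroid hormone in tanycytes, was at 0.970, 1.00 and 1.00 on the fed and 1.01, 0.990 and 1.02 on the fasted arrays (0.024 ± 0.043) and was not called. In the reproductive and growth axes 0 of 8 and 0 of 16 genes were called by limma; at an unadjusted p under 0.05 there were 2 and 8. The tightest members were Npvf (-0.050 ± 0.050) and the progesterone receptor Pgr (-0.11 ± 0.048) in the first, and Igf1r (-0.13 ± 0.043) and Sstr3 (-0.13 ± 0.043) in the second.

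The lowest median of the 56 lists was that of genes that mark thalamus and habenula, regions above the hypothalamus. Of 18 measured genes, 0 rose and 12 fell, against 4.53% of all genes called lower, and the median was -0.49 against -0.016. As the list was chosen with earlier results known, this contrast is not a test. On the single arrays the list's median lay between -0.0077 and 0 in the fed and between -0.51 and -0.45 in the fasted group. Prkcd, a kinase of thalamic relay neurons, was at 1.00, 1.00 and 0.886 on the fed and 0.577, 0.571 and 0.538 on the fasted arrays (-0.78 ± 0.067, adjusted p = 0.00771). Tcf7l2, the transcription factor that defines much of the thalamus, was at 1.07, 0.981 and 1.00 on the fed and 0.611, 0.611 and 0.666 on the fasted arrays, a fall of 0.69 ± 0.060. Habenula genes moved with them: besides Pou4f1, the orphan receptor Gpr151 was at 0.971, 1.06 and 1.00 on the fed and 0.589, 0.615 and 0.625 on the fasted arrays and fell by 0.73 ± 0.055, the nicotinic receptor subunit Chrnb4 fell by 0.69 ± 0.058 and Chrnb3 by 0.56 ± 0.060. No called probe of the whole comparison had overlapping groups, so the gap at these 12 adds nothing to their calls. Synpo2 (-0.74 ± 0.065), Plekhg1 (-0.47 ± 0.052), Ramp3 (-0.54 ± 0.067), Adarb1 (-0.51 ± 0.085), Rgs16 (-0.38 ± 0.053) and Ntng1 (-0.25 ± 0.050) completed the falls. Lef1 (0.15 ± 0.052) and Chrna3 (0.23 ± 0.12) were the only members above 0 and were not called; a second Lef1 probe fell by 0.449 ± 0.053 (adjusted p = 0.0155). Probes of other genes differed too: a second Prkcd probe was at -0.12, 2 other Synpo2 probes at -0.12 and 0.00, a second Chrnb3 probe at 0.17 and another Chrnb4 probe at 0.38, none called, while a further Chrnb4 probe (-0.80) and the second Plekhg1 probe (-0.39) were called. Between 4 and 10 genes were called lower without 1 array, and the median kept its sign under every scaling, from -0.60 to -0.36. How much thalamus each dissection held was not measured, and its part in the other changes was not tested.

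Genes of other forebrain regions fell in part. Of all genes 2.35% were called higher and 4.53% lower. The shares called lower were 21.4% for cortex and hippocampus and 14.3% for striatum. In choroid plexus 7.14% were called higher and 14.3% lower. Leaving out 1 array left 1 to 3, 0, and 0 or 1 genes called lower in these 3 lists. Of 14 genes of cortex and hippocampus 3 were called, all lower: Slc17a7, the vesicular glutamate transporter of cortex and thalamus, was at 1.00, 1.02 and 0.950 on the fed and 0.565, 0.556 and 0.535 on the fasted arrays, a fall of 0.84 ± 0.050 (adjusted p = 0.00262), Nrgn, a postsynaptic calmodulin-binding protein, fell by 0.60 ± 0.083 and Lamp5 by 0.42 ± 0.051. Cortical factors such as Neurod6 (0.10 ± 0.062), Fezf2 (0.084 ± 0.059) and Cux2 (-0.12 ± 0.062) were not called. Of 7 striatal genes, only Drd2, the dopamine receptor, was called (-0.31 ± 0.055). In choroid plexus, 1 of 14 genes rose, the potassium channel Kcnj13 (0.34 ± 0.053), and 2 fell, Ttr and the transcription factor Otx2 (-0.36 ± 0.054), while Kl (0.062 ± 0.069) and Cldn2 (0.0015 ± 0.14) were not called.

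Genes of vessel walls and meninges moved the other way. Of 22 measured, 8 rose and 0 fell, against 2.35% of all genes called higher, with a median of 0.24. Slc47a1, an organic cation exporter, was at 0.959, 1.00 and 1.00 on the fed and 1.54, 1.53 and 1.42 on the fasted arrays and rose by 0.60 ± 0.053 (adjusted p = 0.0078). The matrix proteoglycans Ogn, Omd, Fmod and Lum rose by 0.49 ± 0.052, 0.37 ± 0.051, 0.37 ± 0.066 and 0.32 ± 0.066; Ogn stood at 0.923, 1.00 and 1.00 on the fed and 1.39, 1.35 and 1.37 on the fasted arrays. Collagen Col1a2 (0.35 ± 0.067), the retinoic acid enzyme Aldh1a2 (0.35 ± 0.052) and smooth muscle actin Acta2 (0.30 ± 0.053) completed the rises. The pericyte genes Rgs5 (-0.22 ± 0.082), Kcnj8 (-0.16 ± 0.076) and Vtn (-0.051 ± 0.057) were not called. The list's median by array lay between -0.046 and 0.0087 in the fed and between 0.20 and 0.28 in the fasted group. Its sign held under every scaling, from 0.13 to 0.24, but only 0 to 3 genes were called higher without 1 array. Of 16 endothelial genes, Mfsd2a alone was called (6.25%, against 6.89% of all genes). It was at 1.00, 1.27 and 0.976 on the fed and 1.52, 2.08 and 1.87 on the fasted arrays. Cldn5 (-0.036 ± 0.052) and Tek (-0.072 ± 0.053) were not called. Of 8 blood genes 1 was called (12.5%), Alas2, the haem enzyme of red cells, which rose by 0.70 ± 0.051 (limma adjusted p = 0.00498). Slc4a1, the anion exchanger of red cells, stood at 0.017 ± 0.12.

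**Figure D4:**
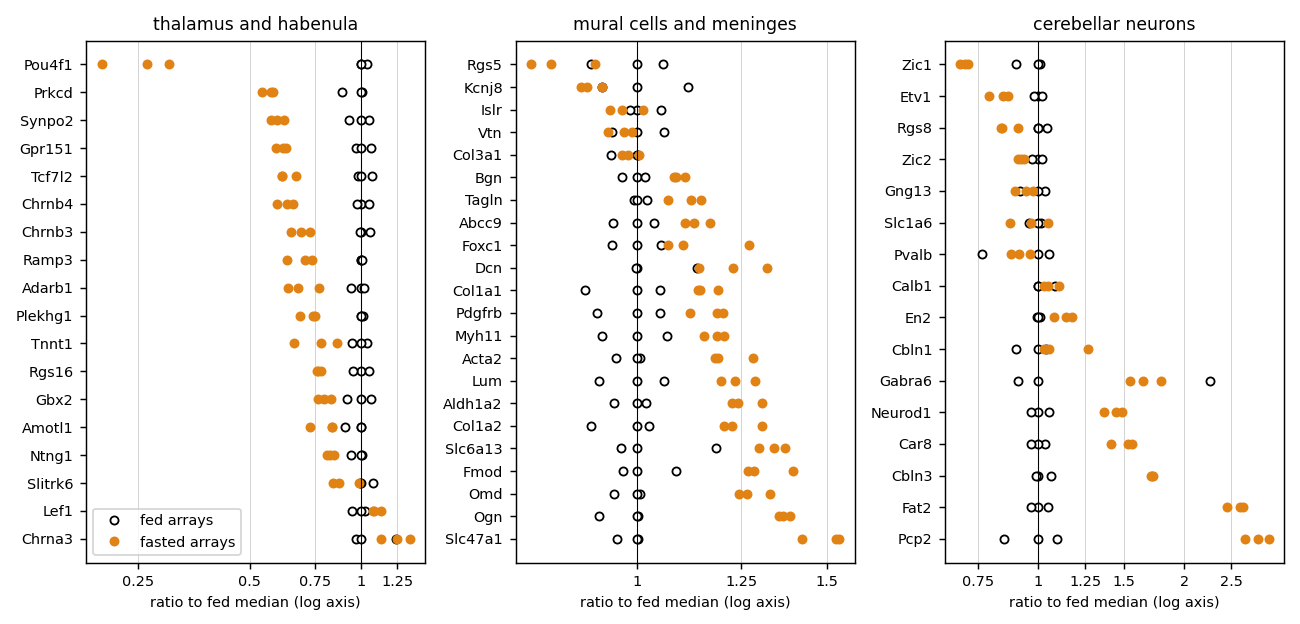
Ratios on the 3 fed (open) and 3 fasted arrays (filled) of 18 genes of thalamus and habenula, 22 of mural cells and meninges and 16 of cerebellar neurons, log axis. All but a few thalamic genes lie lower on the fasted arrays, most meningeal genes lie higher, and cerebellar genes spread both ways.

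The transcription factors that pattern the hypothalamus itself gave 3 calls in 23 (13%, against 6.89% of all genes): 1 rose, 2 fell and the median was 0.03, a value whose sign changed with scaling. Nr5a1, the factor of the ventromedial nucleus, rose by 0.30 ± 0.056 by 1 probe, while its other probe was at -0.03. Lhx9 was at 1.05, 1.00 and 0.995 on the fed and 0.701, 0.714 and 0.675 on the fasted arrays and fell by 0.54 ± 0.049 (adjusted p = 0.00812), and Pou3f2, a factor of the paraventricular nucleus, fell by 0.26 ± 0.048. Hmx2 counts here by its tighter probe, which was not called (-0.14 ± 0.063), and not by the probe named above among the largest falls. Sim1 (0.032 ± 0.065), Nkx2-1 (-0.088 ± 0.055), Six6 (0.081 ± 0.068) and Tbx3 (0.068 ± 0.051) were not called. Of 18 genes of tanycytes and ependyma, the cells that line the ventricle, Col23a1 alone was called (5.56%, against 6.89% of all genes). It was higher on both its probes (0.32 ± 0.046 and 0.28 ± 0.055).

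The glial genes called by their tightest probe all fell. Of 22 oligodendrocyte genes 0 rose and 5 fell (22.7%), against 2.35% and 4.53% of all genes, with a median of -0.15 and 18 below 0, where 53.5% of all genes lay below 0. Ugt8a, an enzyme of myelin lipids, was at 1.09, 0.991 and 1.00 on the fed and 0.672, 0.701 and 0.619 on the fasted arrays and fell by 0.63 ± 0.068 (adjusted p = 0.0128). The lineage factors Olig1 and Olig2 fell by 0.56 ± 0.061 and 0.56 ± 0.076, the lipid hydroxylase Fa2h by 0.32 ± 0.060 and the myelin glycoprotein Mag by 0.25 ± 0.041. A second probe of Pdgfra, a receptor of oligodendrocyte precursors, rose by 0.545 ± 0.0903 (adjusted p = 0.0313), while its tighter probe was at 0.0379. Between 0 and 3 genes were called lower without 1 array. Of 16 astrocyte genes 2 fell (12.5%), the water channel Aqp4 (1.01, 1.00 and 0.999 on the fed and 0.751, 0.737 and 0.679 on the fasted arrays), whose second probe fell as well (-0.54 ± 0.056), and the bicarbonate transporter Slc4a4 (-0.23 ± 0.042), with other probes at -0.13 and 0.22. The astrocyte glutamate transporter Slc1a2 was not called by its tightest probe (-0.177), but another stood at 1.07, 1.00 and 0.864 on the fed and 0.470, 0.459 and 0.470 on the fasted arrays and fell by 1.06 ± 0.0857 (adjusted p = 0.00634), a call that held without any 1 array; its remaining probe scattered widely and was not called. Of 17 microglial genes 2 fell (11.8%), Aif1 (-0.28 ± 0.055) and Tmem119 (-0.24 ± 0.046). The thalamic and habenular list fell on the same arrays by a median of 0.49, and its part in the glial values was not tested.

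The neuronal lists below are read against 2.35% of all genes called higher and 4.53% called lower. General neuronal genes gave 2 calls of 17 (11.8%), the neurofilaments Nefm (-0.51 ± 0.071) and Nefl (-0.29 ± 0.060), both lower. Of 12 genes of GABA and glutamate identity 2 fell (16.7%), Slc17a7 and Meis2 (-0.65 ± 0.055). In the dopamine list 3 of 12 fell (25%) and 1 rose (8.33%): the dopamine transporter Slc6a3 was at 1.06, 1.00 and 0.936 on the fed and 0.649, 0.645 and 0.659 on the fasted arrays and fell by 0.62 ± 0.059 (adjusted p = 0.00962), Drd2 and the cofactor enzyme Gch1 (-0.28 ± 0.043) fell, and Drd4 rose by 0.34 ± 0.065. The synthesis enzyme Th was at -0.18 ± 0.059 without a call. Of 17 histamine and serotonin genes, Htr1a was called (-0.29 ± 0.048, with a second probe at -0.08). The endocannabinoid list, messengers that raise feeding, had 6 measured genes of which 0 rose and 3 fell (50%): Daglb, which makes 2-AG, at 1.00, 1.06 and 0.941 on the fed and 0.780, 0.765 and 0.769 on the fasted arrays, Mgll, which breaks it down, at 1.01, 1.00 and 0.962 on the fed and 0.767, 0.797 and 0.754 on the fasted arrays, and Napepld, which makes anandamide (-0.31 ± 0.061). Between 0 and 2 genes of this list were called lower without 1 array. Of 16 GABA receptor subunits 2 fell (12.5%), Gabrd (-0.50 ± 0.052) and Gabra4 (-0.39 ± 0.050, second probe -0.62, called), and of 21 glutamate receptor subunits Gria4 rose by 0.31 ± 0.062. Of 76 potassium channel genes 1 rose (1.32%) and 5 fell (6.58%), with Kcns2 (-0.53 ± 0.11), Kcnk3 (-0.44 ± 0.059) and Kcnj9 (-0.34 ± 0.059) lowest among the calls. Of 21 immediate early genes 2 fell (9.52%), Jun (-0.31 ± 0.056) and Nr4a3 (-0.25 ± 0.044, second probe 0.03); Fos was at 1.02, 1.00 and 0.973 on the fed and 1.11, 1.08 and 1.06 on the fasted arrays (0.12 ± 0.045, adjusted p = 0.148). Of 20 clock genes 2 fell (10.0%), Hlf (-0.37 ± 0.058) and Rora (-0.35 ± 0.057, second probe 0.03).

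Over 7 lists of energy sensing and fuel use, 12 of 148 genes were called (8.11%), close to the 6.89% of all genes. Of 21 insulin and FoxO genes 1 rose and 2 fell. Txnip, a FoxO target that restrains glucose uptake, was at 1.06, 1.00 and 0.996 on the fed and 1.41, 1.43 and 1.35 on the fasted arrays and rose by 0.46 ± 0.050 (adjusted p = 0.013), and its second probe rose by 0.69 (adjusted p = 0.00801). Pdpk1, the kinase that activates Akt, fell by 0.42 ± 0.042, with very close arrays at 0.997, 1.03 and 1.00 on the fed and 0.756, 0.760 and 0.758 on the fasted arrays, and Foxo6 fell by 0.43 ± 0.054. Of 19 AMPK and mTOR genes 2 fell, Camkk2, an AMPK kinase that acts in Npy neurons (1.00, 1.03 and 0.972 on the fed and 0.738, 0.738 and 0.730 on the fasted arrays), and the coactivator Ppargc1a (-0.29 ± 0.048). Of 24 genes of glucose transport and glycolysis 1 was called, Slc2a4, the insulin-regulated transporter GLUT4, at 0.989, 1.01 and 1.00 on the fed and 1.51, 1.41 and 1.43 on the fasted arrays, a rise of 0.53 ± 0.047 (adjusted p = 0.00783); its second probe was at 0.24 ± 0.052 (adjusted p = 0.0526). Of 25 genes of fat oxidation and ketone use 1 was called, the monocarboxylate transporter Slc16a7 (-0.31 ± 0.059). Of 17 lipid droplet genes Plin4 and Angptl4 rose and Lipe, hormone-sensitive lipase, was at 1.09, 1.00 and 0.971 on the fed and 0.409, 0.367 and 0.169 on the fasted arrays, so 1 fasted array lay far below the rest (-1.79 ± 0.33, adjusted p = 0.0402). Of 23 genes of fatty acid synthesis 0 were called by limma, and 11 had an unadjusted p under 0.05; Elovl5 was at -0.14 ± 0.047 and Elovl7 at 0.12 ± 0.047. Of 19 cholesterol synthesis genes 0 rose and 2 fell, Cyp51 (-0.30 ± 0.047) and Ebp (-0.33 ± 0.068). Below 0 lay 18 of them, where 53.5% of all genes did. The median of -0.12 was of the order of the shift between scalings. Whichever array was left out, 0 genes of this list were called lower. The sterol element TCACNCCAC, searched on both strands, was in the window of 1 of 16 such genes, Hmgcs1, against 1.44% of all genes.

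Of complexes I to V, 30, 4, 9, 13 and 16 subunits were measured, 0 rose, and 2, 1, 1, 2 and 2 fell (11.1% of 72, against 4.53% of all genes), with medians of -0.17, -0.19, -0.12, -0.13 and -0.14. Cox6a2, the subunit of heart, muscle and some neurons, was the largest at 1.03, 1.00 and 0.998 on the fed and 0.606, 0.603 and 0.624 on the fasted arrays, a fall of 0.72 ± 0.043 (adjusted p = 0.00262), and it was called without any 1 array. Uqcrc1 (-0.34 ± 0.047), Atp5k (-0.35 ± 0.065), Cox7b2 (-0.29 ± 0.061), Ndufa7 (-0.28 ± 0.046), Atp5e (-0.24 ± 0.049), Sdhc (-0.22 ± 0.044) and Ndufb4 (-0.21 ± 0.043) were the others. A second probe of Uqcr10, a complex III subunit, rose by 0.355 ± 0.0667 (adjusted p = 0.041), while its tighter probe was at -0.0034. Of 72 mitochondrial ribosomal proteins 3 fell and 0 rose, Mrpl42 (-0.37 ± 0.073), Mrps11 (-0.30 ± 0.049) and Mrpl55 (-0.22 ± 0.044), near the share of all genes. Of the 72, 64 lay below 0, where 53.5% of all genes did. Of 60 cytosolic ribosomal proteins Rps13 was called (0.40 ± 0.065, second probe 0.11 and not called), with a median of -0.05. Medians of this size are of the order of the shift between scalings, and their signs held under the 4 scalings tried.

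Among chaperones, 0 of 22 heat shock genes rose and 5 fell (22.7%), against 2.35% and 4.53% of all genes. Cryab, a small chaperone abundant in oligodendrocytes, was at 1.00, 1.09 and 0.966 on the fed and 0.607, 0.806 and 0.653 on the fasted arrays and fell by 0.57 ± 0.12 (adjusted p = 0.0459). Chordc1, an Hsp90 partner, was at 1.06, 1.00 and 0.919 on the fed and 0.682, 0.660 and 0.669 on the fasted arrays and fell by 0.56 ± 0.064 (adjusted p = 0.014). Hspb1 fell by 0.40 ± 0.059, Hspa1b by 0.35 ± 0.046 and Ahsa1, which speeds the Hsp90 cycle, by 0.28 ± 0.054. The mitochondrial pair Hspd1 (-0.027 ± 0.058) and Hspe1 (-0.0051 ± 0.13) and the Hsp110 gene Hsph1 (-0.040 ± 0.13) were not called. Hspa1b has a near-identical copy, so its probe may read both. Without 1 array, 0 to 2 genes were called lower. The heat shock element, 3 alternating units searched as GAANNTTCNNGAA or TTCNNGAANNTTC, which are each other's reverse strand, was in the window of 4 of the 18 genes that had one, Chordc1, Hspd1, Hspe1 and Hsph1, against 0.662% of all genes; only Chordc1 of the 4 was called. Its window, at chr9:18292017-18292316 on the plus strand of GRCm38.p6, is shown because 3 overlapping matches lie at its start site, from bases 247, 252 and 257, in capitals.
Chordc1: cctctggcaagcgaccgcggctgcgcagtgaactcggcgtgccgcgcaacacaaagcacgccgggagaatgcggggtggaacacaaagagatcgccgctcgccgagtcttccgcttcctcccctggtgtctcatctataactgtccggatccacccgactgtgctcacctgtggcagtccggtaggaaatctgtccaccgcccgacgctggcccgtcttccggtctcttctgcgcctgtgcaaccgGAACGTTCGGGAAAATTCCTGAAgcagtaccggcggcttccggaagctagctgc
Hspd1 and Hspe1 lie head to head in the genome and their windows overlap. Their matches are the same bases read on opposite strands, so both genes enter the count above through the same stretch.

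Of 7 other protein, stress and immune lists, 3 gave 1 call each, 1 gave 2 and 3 gave 0, where 6.89% of all genes were called. Of 19 endoplasmic reticulum chaperone and stress genes Sdf2l1 fell by 0.43 ± 0.056, of 38 proteasome subunits Psmb5 fell by 0.29 ± 0.061, and of 21 targets of Atf4, the amino acid response factor, Slc7a5, a leucine transporter, rose by 0.35 ± 0.067. Of 12 inflammation genes 2 rose (16.7%, against 2.35% of all genes called higher), the chemokine Cxcl10 (0.42 ± 0.075) and the receptor antagonist Il1rn (0.31 ± 0.050). Autophagy and lysosome (25 genes), cell cycle (19) and antioxidant genes (15) had 0 calls by limma, and 11, 3 and 4 unadjusted p-values under 0.05. Their tightest members were Gabarap (-0.17 ± 0.046) and Ulk2 (0.077 ± 0.046), Pcna (-0.17 ± 0.046) and Mcm6 (0.071 ± 0.041), and Gstm1 (-0.16 ± 0.044) and Sod2 (-0.16 ± 0.049).

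**Figure D5:**
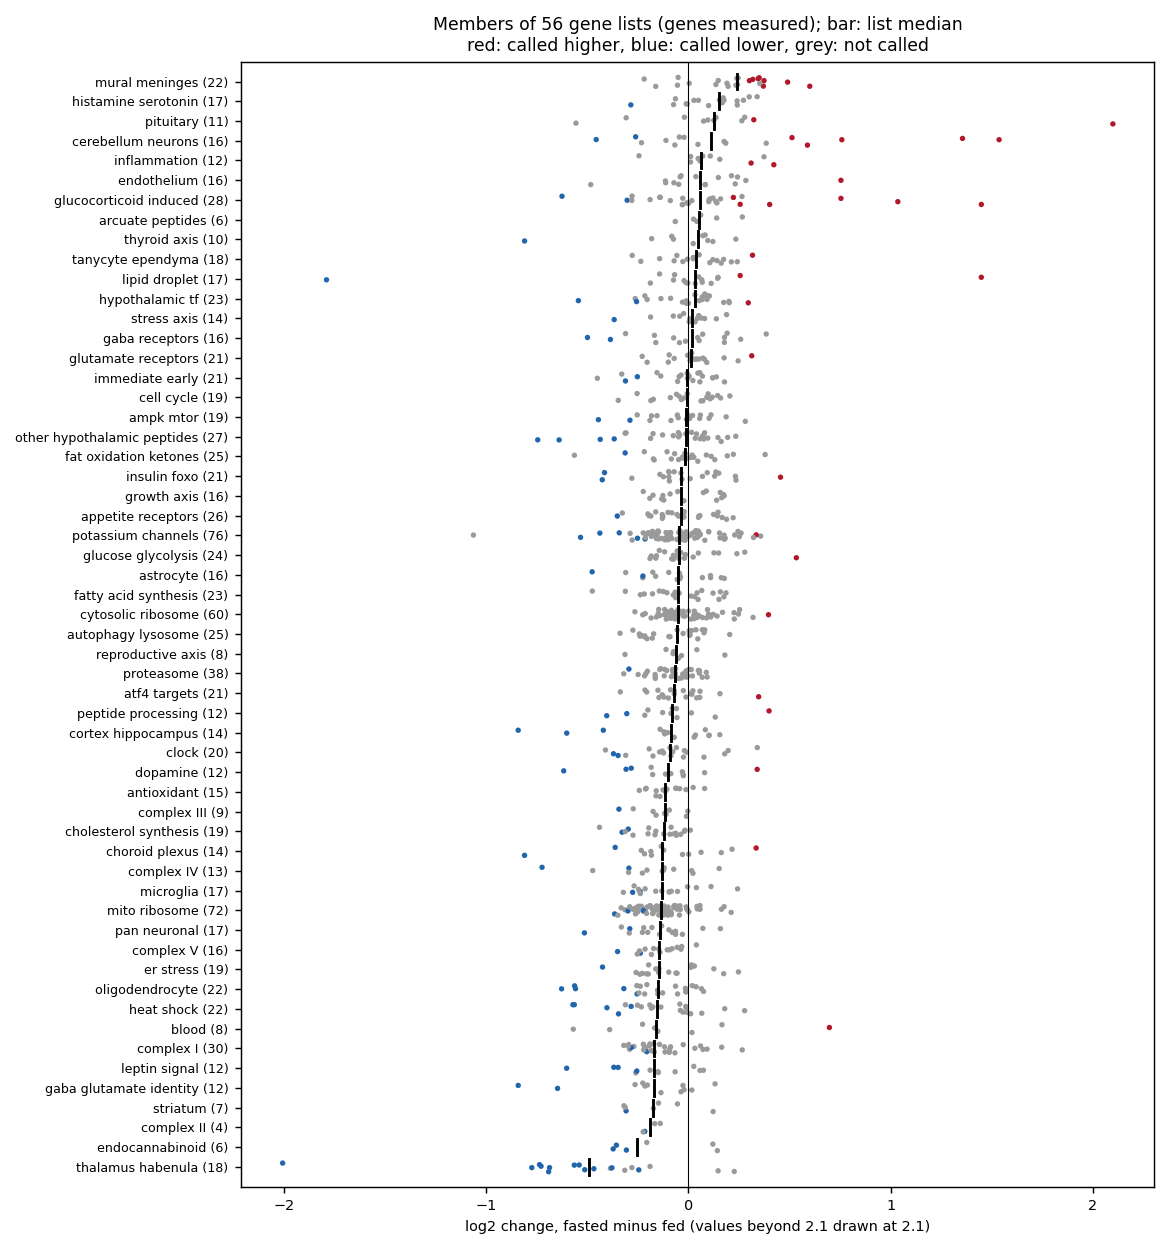
Log2 change of every measured member of 56 gene lists, ordered by list median (bar); red and blue mark called genes, and a gene may be on several lists. Thalamus and habenula lie lowest at a median of -0.49 and mural cells and meninges highest at 0.24. Below 0 lie 41 medians, and 15 of the 56 change sign with scaling.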

How the data were processed

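Arrays were labelled with biotin and streptavidin Cy5, per the labels' protocols. The deposited values are linear ratios: as judged from the values, the authors divided every probe by its region's fed median, which was 1 at all 34999 probes (tolerance 1e-06). Background correction and scaling by the authors are not stated here, and signal strength, which sets precision, is not kept. Arrays were scaled to a median ratio of 1, ratios below 0.1 were raised to 0.1 and put on the log2 scale. With these values limma 3.58.1 in R 4.3.3 (lmFit, eBayes without trend, two-sided) was fitted to the 6 hypothalamus arrays, and an interaction to all 11, with Benjamini-Hochberg adjustment over all probes. The steps were tested on simulated data.

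The platform annotation gave 21590 probes 1 gene symbol, 681 several and 12728 none, and 21462 matched RefSeq. Named are the 15 genes with the largest rises and the 15 with the largest falls among calls whose arrays did not overlap and lay within 1 log2 in each group, leaving out provisional symbols (1 higher and 4 lower), up to 4 called members of each of 56 lists (the 2 tightest where none was called), and 19 fixed genes of feeding and hormone circuits. Some further members are given beside them. Members and lists were chosen with earlier results of these data known, so no list was tested. An exact permutation test of 3 against 3 arrays cannot go below p = 0.1. Alternatives were scaling, floor, filter, robust prior, replicate block, all arrays and each array left out.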

Additional observations from a re-analysis of the deposited data

Results flagged for a closer look

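The fasting change of the hypothalamus was set against that of the cerebellum by the interaction contrast of limma over all 11 arrays, and 6184 probes (17.7%) differed. Only 2 arrays of the fasted cerebellum were used, and with quantile normalization 153 probes differed. Given below are genes named by rule whose changes differed, with the difference, hypothalamus minus cerebellum, as log2 ± SE. They are not all of the named genes that differed. Slc6a3, for example, differed by -0.406 ± 0.0784 (limma adjusted p = 0.00836).

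Prl stood at 3.60 in the hypothalamus and 3.07 in the cerebellum, and the difference was 0.527 ± 0.096 (adjusted p = 0.0064). Plin4 stood at 1.45 and 0.96, with a difference of 0.485 ± 0.12 (adjusted p = 0.0222). For genes of cerebellar neurons the difference was 2.69 ± 0.12 for Cbln3, which stood at -0.81 in the cerebellum, 1.55 ± 0.16 for Pcp2 at -0.011 and 1.54 ± 0.12 for Fat2 at -0.18. Il20rb differed by 1.52 ± 0.10, Mybpc1 by 1.28 ± 0.12, Slc6a12 by 1.11 ± 0.15 and Mybpc3 by 1.06 ± 0.17.

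Feeding peptides differed through the cerebellum. Pomc was at 0.06 in the hypothalamus and 1.32 in the cerebellum, a difference of -1.26 ± 0.072 (adjusted p = 3.98e-05). Gal was at 0.06 and -1.61, a difference of 1.67 ± 0.44 (adjusted p = 0.0321), and Cartpt at -0.07 and -0.60, a difference of 0.533 ± 0.092 (adjusted p = 0.00492).

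Among the lower genes, Diaph3 differed by -3.9 ± 0.66 and Pou4f1 by -3.04 ± 0.58, both with a cerebellar change above 0 (2.02 and 1.03). Asxl2 differed by -1.54 ± 0.28, Cyp2a22 by -1.52 ± 0.31, Trim61 by -1.48 ± 0.24, Meis2 by -0.813 ± 0.10, Slc17a7 by -0.76 ± 0.086 and Gabrd by -0.38 ± 0.074.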

How the results depend on the processing

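The number of called probes, 2210 (830 higher, 1380 lower), moved with the setting. It was 4980 (2220 and 2760) with all 11 arrays in the fit, 7051 (392 and 6659) with 75th percentile scaling, 24 (1 and 23) with quantile normalization, 3355 (1370 higher) where only probes with fed arrays within 2-fold were tested, and with no scaling 543 were higher and 2302 lower. A floor of 0.01 gave 2203 and robust eBayes 2431. Leaving out 1 array gave 134 to 990 calls, 23 to 273 higher and 111 to 717 lower. Over all lists, 124 genes were called, against 237 with 11 arrays, 381 with the 75th percentile, 2 with quantile normalization and 13 to 71 without 1 array. For the difference between regions, quantile normalization gave 153 in place of 6184. The cause of these shifts was not tested. Of the 125 named genes called, 113 were called with 11 arrays, 5 with quantile normalization and 21 to 76 without 1 array. In every setting 17 probes were called, 1 of them higher (Prl). With 3 arrays of 1 pool on each side the precision is that of hybridisation.

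The labels do not say that replicate numbers pair the arrays, and the data do not settle it. Deviations of same-numbered arrays correlated at 0.074, 0.095 and 0.072 by Pearson, under 0.1, and at 0.17, 0.12 and 0.19 by Spearman, and every array correlated best with its own number. With the replicate block 48 probes were called, 6 higher and 42 lower, 4 genes over the 56 lists and 9 of the 125 named genes.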

Other observations

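Genes of cholinergic neurons, gathered after their values were seen, included some of the steadiest falls. Slc18a3, which loads acetylcholine into vesicles, was at 1.02, 1.00 and 0.982 on the fed and 0.479, 0.462 and 0.474 on the fasted arrays, a change of -1.08 ± 0.043 (limma adjusted p = 0.000875). Chat, the enzyme that makes acetylcholine, was at 1.01, 1.00 and 0.915 on the fed and 0.430, 0.391 and 0.446 on the fasted arrays (-1.21 ± 0.071, adjusted p = 0.00262). Lhx8, a factor of basal forebrain cholinergic neurons, changed by -1.22 ± 0.069 and -1.05 by its 2 probes, and Gbx1, expressed in the same cells, by -0.46 ± 0.050. Slc18a3, Chat and both Lhx8 probes were called without any 1 array. Of 8 measured genes of this kind 4 were called, all lower, where 4.53% of all genes were called lower. As the genes were gathered with their values known, this count is not a test of the cell type. Slc5a7 (0.10 ± 0.13), the choline transporter, and Ache (-0.10 ± 0.068), which breaks acetylcholine down, were not called. The fall differed from the cerebellum for Slc18a3, by -1.09 ± 0.092 (adjusted p = 0.000152), and for Lhx8, by -1.20 ± 0.24 (adjusted p = 0.00968), and was not shown to differ for Chat, by -0.64 ± 0.20 (adjusted p = 0.0626).

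Of 9 genes of midbrain dopamine neurons, gathered the same way, 2 were called, both lower, where 4.53% of all genes were called lower. They were En1 (0.956, 1.00 and 1.05 on the fed and 0.585, 0.537 and 0.592 on the fasted arrays, a change of -0.81 ± 0.062) and Slc6a3. Th (-0.18 ± 0.059), Pitx3 (-0.17 ± 0.062) and Foxa2 (-0.046 ± 0.062) were not called. Lmx1b (0.19 ± 0.051) and Foxa1 (0.074 ± 0.077) lay above 0, also without a call. Among other calls that held without any 1 array were Fabp7 of glia (-0.65 ± 0.044), the haematopoietic factor Hcls1 (-0.99 ± 0.049) and the cytokine receptor Lifr (-1.18 ± 0.087), whose other probe was at -0.02 ± 0.059. A probe without a gene symbol, probe_359044, had the second largest rise of all calls, at 1.08, 0.982 and 1.00 on the fed and 6.94, 7.38 and 6.81 on the fasted arrays (2.79 ± 0.060, adjusted p = 0.000115).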
